A study of Mus musculus with 2 samples.

Results

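Cells with transcripts of the matrix gene *Lum* and of the receptor gene *Pdgfra*, but few or none of several other genes, were picked out of cultured vascular smooth muscle cells (VSMCs), and 281 of 11690 cells met that choice. A member had at least 1 UMI of *Lum* and of *Pdgfra*, at most 1 UMI of *Myh11*, fewer than 3 UMIs of *Mki67*, *Top2a* and *Cenpf* together, at most 1 UMI of *Sox9*, and 0 UMIs of *Gpnmb*, *Fgf18* and *Il1rn*. A UMI (unique molecular identifier) stands for 1 captured mRNA molecule. There were 180 members among 4866 cells of replicate 1 and 101 among 6824 cells of replicate 2. Members were thus chosen by the measured UMI counts of 10 genes, whose levels describe the choice and were left out of every test.

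The cells were primary aortic VSMCs of wild type mice (C57BL6/N) after 5 days in full medium, and the 2 single-cell RNA-seq libraries, biological replicates of this 1 condition, are the replicates of every value (n = 2). Aortae of several mice were pooled for a cell preparation, and no lineage tracer marks which cells descend from smooth muscle, so adventitial fibroblasts that grew in the dish and modulated VSMCs cannot be told apart by label. The deposited counts summed to 127949633 UMIs in replicate 1 and 132561822 UMIs in replicate 2, with medians of 22234.5 and 16310 UMIs per kept cell. In the members, *Xist* was at 0 CPM (UMIs of a gene over all UMIs of the summed cells, scaled to one common total) in replicate 1 and 482 CPM in replicate 2, while *Ddx3y*, a gene of the Y chromosome, was at 94.8 and 0 CPM, so that library and sex cannot be told apart. The libraries shared 9 barcodes among kept cells, and 0 barcodes were members in both.

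In culture and in injured or atherosclerotic arteries, VSMCs lose contractile proteins, divide and make extracellular matrix, a change called phenotypic modulation. Part of the modulated cells come to resemble fibroblasts. *Lum* codes for lumican, a small leucine-rich proteoglycan that sits on collagen fibrils and sets their spacing, and *Dcn* for decorin, a relative with a similar role. *Pdgfra* codes for the receptor of platelet-derived growth factor A and is widely used to mark fibroblasts. The upper limits of the rule remove contractile cells (*Myh11*, smooth muscle myosin), dividing cells (*Mki67*, *Top2a*, *Cenpf*), and cells with a cartilage regulator (*Sox9*), a glycoprotein of lipid-laden cells (*Gpnmb*), a growth factor (*Fgf18*) or an interleukin-1 antagonist (*Il1rn*).

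In the GRCm38 build *Lum* spans 97565128 to 97572703 of chromosome 10 (forward strand) and *Dcn*, also on the forward strand, 97479609 to 97518143, so that 47.0 kb separate these genes. *Pdgfra* spans 75152292 to 75198215 of chromosome 5, also on the forward strand. Lumican transcripts were few in most members, with a median of 3 UMIs in either replicate and a range from 1 to 35 UMIs in replicate 1 and from 1 to 21 in replicate 2. *Pdgfra* had a median of 2 UMIs in either replicate, with highest values of 25 and 10.

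Members made up 3.70% of the kept cells in replicate 1 (exact binomial 95% interval 3.19 to 4.27%) and 1.48% in replicate 2 (1.21 to 1.80%). The mean was 2.59% ± 1.57 (SD, n = 2), and the intervals, which cover counting error only, did not overlap. This difference between the libraries was not seen when every cell was thinned at random to 3000 UMIs before the rule was applied, where the shares were 2.67% (2.24 to 3.16%) and 2.97% (2.58 to 3.41%) with overlapping intervals. Of the cells that had at most 1 UMI of *Myh11* and were below the cycling limit, 6.90% of 2607 and 2.54% of 3971 were members. Cells with both *Lum* and *Pdgfra* were far more common than members: 37.8% and 43.3% of those cells had a UMI of each, and 18.3% and 5.87% of these double-positive cells met the upper limits too. The limit on *Gpnmb* removed most in replicate 2, where 78.5% of the non-cycling low-*Myh11* cells had a UMI of it against 38.3% in replicate 1. The limit on *Fgf18* removed 45.7% in replicate 1 and 20.4% in replicate 2. *Il1rn* removed 21.0% and 5.09%, and *Sox9* removed 17.1% and 27.8%.

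Members differed from the other cells in depth. They had medians of 18007.5 UMIs in replicate 1 and 12107 in replicate 2, against 19793 and 14438 in the other non-cycling low-*Myh11* cells, called the rest below. From the quartile of cells with the fewest UMIs to that with the most, the share of members went from 7.36% over 9.66% and 6.29% to 4.30% in replicate 1, and from 3.73% over 2.62% and 2.52% to 1.31% in replicate 2. Over the same quartiles the share of cells with *Lum* and *Pdgfra* went up from 19.9% to 51.9% and from 25.7% to 56.4%. On the thinned cells 130 and 203 cells met the rule, of which 27 and 34 were among the members as defined. Membership of a single cell thus changed when its low counts were drawn again at a lower depth, in which depth and sampling noise were not told apart, and the values below are sums over cells.

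**Figure D1:**
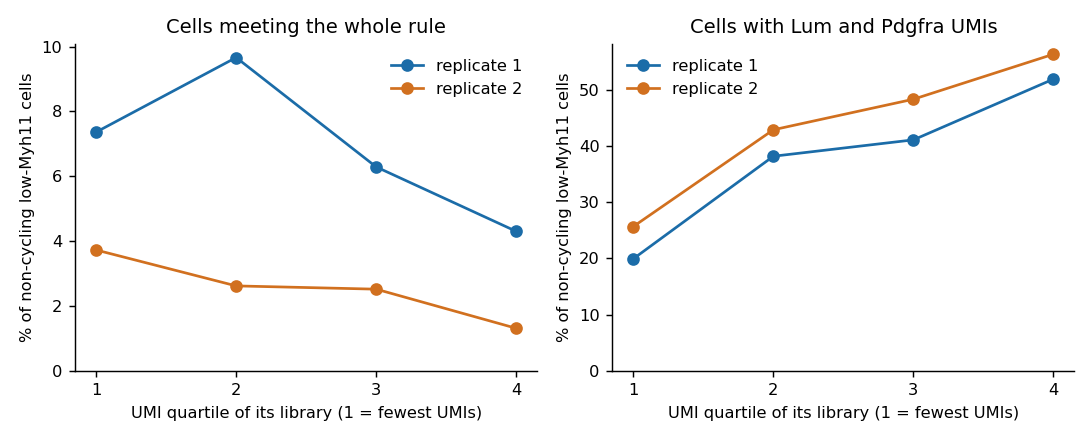
Share of non-cycling low-*Myh11* cells (vertical axis, %) that met the whole rule (left) or had at least 1 UMI of both *Lum* and *Pdgfra* (right), by quartile of UMI count within each library (horizontal axis); each point is 1 quartile of 1 library. The right-hand shares rise with depth in both replicates, from 19.9% to 51.9% and from 25.7% to 56.4%, whereas the left-hand shares are lowest, at 4.30% and 1.31%, in the deepest quartile.

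The third marker given for these cells, *Dcn*, was not used by the rule and was found in nearly all members. A *Dcn* UMI was present in 174 of 180 members in replicate 1 (96.7%, 95% interval 92.9 to 98.8%) and in 96 of 101 in replicate 2 (95% interval 88.8 to 98.4%). In endothelial cells of the same libraries (at least 2 UMIs each of *Pecam1* and *Cdh5*), which should lack *Dcn*, 28.4% and 34.1% had a UMI at medians of 14523 and 10647 UMIs per cell. Those endothelial shares were taken as the background of *Dcn*, in which free RNA and doublets, which were kept, were not told apart. Barcodes with 1 to 100 UMIs, mostly empty droplets, had *Dcn* at 204 and 337 CPM. *Dcn* was not particular to the members, since 89.1% and 91.2% of the cells over a limit on *Sox9*, *Gpnmb*, *Fgf18* or *Il1rn* had a UMI of it. Thinned to 3000 UMIs per cell, the expected share for *Dcn* was 74.9% and 78.4% in members, 51.3% and 69.6% in the cells over a limit, 30.0% and 35.0% in cells that met every upper limit but lacked *Lum* or *Pdgfra*, and 20.6% and 8.64% in contractile cells (at least 10 UMIs of *Myh11*). *Lum* itself was found in 15.8% and 12.7% of endothelial cells and *Pdgfra* in 14.7% and 7.94%, so that a single UMI of either gene in a member lies within what such cells also showed.

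*Dcn* varied among the members together with *Lum*. In replicate 1 it was at 341 CPM in the 52 members with 1 *Lum* UMI, 533 CPM in the 57 with 2 to 4, and 1229 CPM in the 71 with 5 or more. In replicate 2 the same groups of 28, 45 and 28 members were at 429, 716 and 1437 CPM. *Col3a1*, which codes for the fibril-forming type III collagen, went from 915 over 998 to 1155 CPM in replicate 1 and from 463 over 726 to 962 CPM in replicate 2. The order of the *Lum* groups was thus the same in both libraries for both genes, and the groups share their libraries. Their median depths did not follow that order in replicate 2, at 13808, 11393 and 12423 UMIs from the lowest *Lum* group to the highest. In replicate 1 the medians were 17212.5, 18786 and 18677 UMIs, so that the group with 1 *Lum* UMI was the shallowest there.

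Among the cells on the other side of the *Lum* and *Pdgfra* thresholds, *Dcn* was likewise highest in those with *Lum*. Of the cells that met all upper limits, 63 and 92 had *Lum* without *Pdgfra*, and their *Dcn* was at 596 and 735 CPM. The 168 and 73 cells with *Pdgfra* and no *Lum* were at 205 and 283 CPM, and the 220 and 293 cells with neither gene at 121 and 109 CPM. The levels in cells with *Lum* alone were nearer to those of the members, 764 and 846 CPM, than those in cells with *Pdgfra* alone. They were above those of the members with 1 *Lum* UMI, at 341 and 429 CPM. The cells with neither gene were shallower, at medians of 7020 and 6508 UMIs, and had the endothelial marker *Pecam1* at 360 and 300 CPM against 7.49 and 0 CPM in members, and the part of endothelial cells in their low *Dcn* was not tested. Just inside the rule, 26 and 12 cells with exactly 1 UMI of each gene had *Dcn* at 313 and 423 CPM, and just outside it, 115 and 91 cells with 1 UMI of one gene and none of the other were at 206 and 279 CPM.

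**Figure D2:**
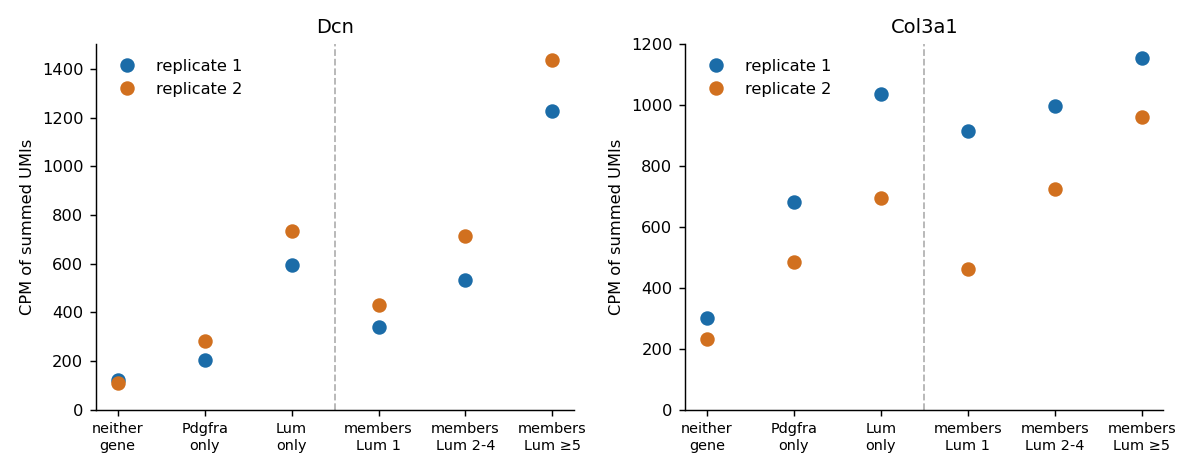
CPM of summed UMIs (vertical axes) of *Dcn* (left) and *Col3a1* (right) in cells that met all upper limits, split by *Lum* and *Pdgfra* (horizontal axis); each point is 1 library, and members stand right of the dashed line. *Dcn* is at 121 and 109 CPM in cells with neither gene and at 1229 and 1437 CPM in members with at least 5 *Lum* UMIs. It is higher in cells with *Lum* alone (596 and 735 CPM) than in members with 1 *Lum* UMI (341 and 429 CPM). The cells with neither gene also hold endothelial cells, with *Pecam1* at 360 and 300 CPM.

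Members did not form a group of their own when the cells of each library were clustered without the rule genes. They fell into 7 of 10 clusters in replicate 1 and 9 of 13 in replicate 2. The cluster with most members held 70 of them (38.9%) in replicate 1 and 29 (28.7%) in replicate 2, and these clusters also held 32.0% and 25.9% of all non-cycling low-*Myh11* cells. No cluster was made up of members by more than 6.97% in replicate 1 or 3.39% in replicate 2. With no cluster of their own, they are called members or *Lum* and *Pdgfra* cells here and not a fibroblast type.

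**Figure D3:**
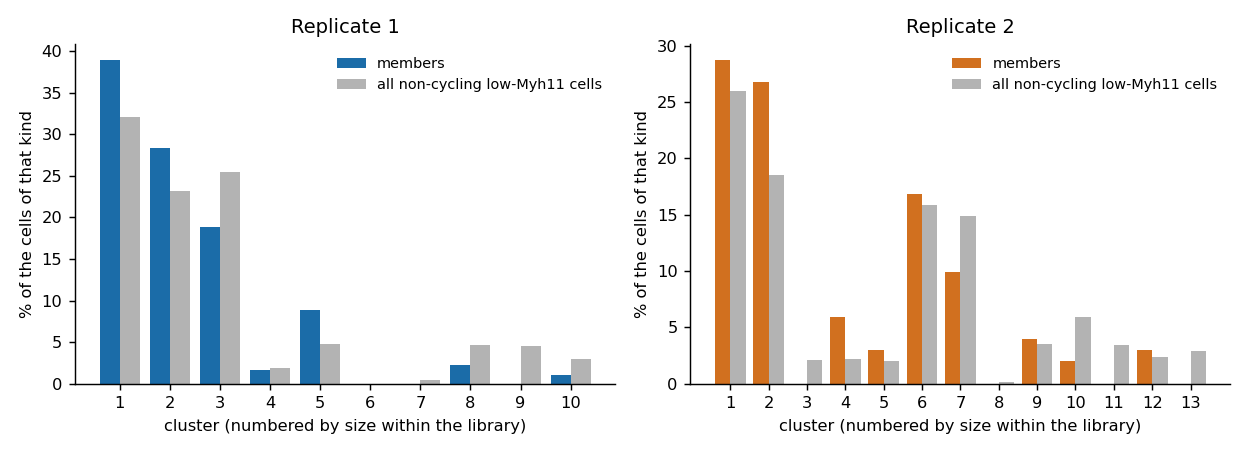
Percent of members (coloured) and of all non-cycling low-*Myh11* cells (grey) that fell into each cluster of replicate 1 (left) and replicate 2 (right); clusters are numbered by size within a library and do not correspond between panels. The largest shares of members, 38.9% and 28.7%, are in cluster 1 of each library, as are the largest grey shares, 32.0% and 25.9%, while some clusters with a grey share, such as cluster 9 of replicate 1 (4.53%), hold 0 members.

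Endothelial, macrophage and mesothelial markers were low in the members, while some adipocyte, pericyte and Schwann cell markers were present. The 10 endothelial markers summed to 47.9 CPM in replicate 1, where *Cldn5* was the most abundant at 12.7 CPM, and to 7.48 CPM in replicate 2, where *Pecam1*, *Cdh5*, *Tie1*, *Vwf*, *Tek* and *Esam* were at 0. In endothelial cells the same markers summed to 4360 and 4269 CPM. Of the macrophage markers, *Ptprc*, *Adgre1*, *C1qa*, *C1qb*, *C1qc*, *Fcer1g* and *Tyrobp* were at 0 in the members of both libraries, and the list summed to 14.4 and 12.7 CPM, with *Lyz2* the most abundant at 8.94 and 5.99 CPM. *Sox10*, *Foxd3* and *Gfra3* of the Schwann cell list, *Msln*, *Upk1b*, *Lrrn4*, *Krt8* and *Krt18* of the mesothelial list, and *Adipoq*, *Plin1*, *Cidec* and *Lep* of the adipocyte list were also at 0 in both. The adipocyte list nevertheless summed to 236 and 263 CPM in members, against 319 and 299 CPM in the rest, through *Fabp4*, a fatty acid carrier, at 218 and 241 CPM. The pericyte list summed to 259 and 373 CPM, against 206 and 213 CPM in the rest and 456 and 383 CPM in contractile cells. *S100b* of the Schwann cell list was at 18.7 and 23.9 CPM, and the mesothelial list summed to 2.59 and 4.49 CPM. The part of other cell types in the results below was tested for endothelial and macrophage cells alone.

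Contractile genes were far below the contractile cells in the members, at sums near those of the rest. *Acta2*, smooth muscle actin, was at 3720 and 2263 CPM in members, 3746 and 2115 CPM in the rest, and 18020 and 19018 CPM in contractile cells. The 20 contractile genes summed to 12599 and 7605 CPM in members, 12932 and 7329 CPM in the rest, and 45017 and 44648 CPM in contractile cells. Members and contractile cells were split on *Myh11* itself, so that this gap was largely set by the choice of cells and is given as a description. The 20 adventitial fibroblast markers summed to 2315 and 1384 CPM in members, 1948 and 1493 CPM in the rest, and 926 and 728 CPM in contractile cells. *Mfap5*, a protein of elastic microfibrils, was the most abundant of them in members at 655 and 383 CPM, whereas *Pi16* was at 4.90 and 4.49 CPM and *Dpp4* at 0 in both.

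The members were compared with the rest, 2427 cells in replicate 1 and 3870 in replicate 2, by summing the counts of each group in each library. Across 13367 genes tested with edgeR's quasi-likelihood test (Benjamini-Hochberg adjusted p, threshold 0.05) on these 4 sums, 0 genes passed (0.0%). An unadjusted p under 0.05 was found for 242 of these genes, fewer than that threshold would give with no differences. DESeq2 called 4 genes, all lower. Members and rest of one library come from the same culture. A fit that took the library as a block called 322 genes (2.41% of those tested), 154 higher in members (1.15%) and 168 lower (1.26%). The log2 fold changes and adjusted p-values that follow, edgeR's with the block and their SE unless another comparison is named, are of that fit. It was used because no gene passed the edgeR test above without the block. With no filter on low counts, edgeR without the block called 4 genes higher and 43 lower. The block takes out the spread between the libraries. What is left is how far the difference between members and rest varied over 2 libraries, on 1 residual degree of freedom per gene. That variation is estimated with information shared over genes, so a small SE or p-value does not show that the 2 libraries gave like differences.

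Among small leucine-rich proteoglycans, the family of lumican itself, 5 of 10 genes tested were higher in members and 0 lower, with a median log2 fold change of 0.20 against −0.02 over all genes. *Dcn* was at 764 and 846 CPM in members against 377 and 635 CPM in the rest, higher in both libraries, with a log2 fold change of 0.70 ± 0.06 (adjusted p = 1.1e-29). Members with 1 *Lum* UMI had *Dcn* below the rest in both libraries, at 341 and 429 CPM. Those with 5 or more were at 1229 and 1437 CPM. *Aspn*, asporin, which binds collagen and TGF-β, was at 140 and 148 CPM against 95.6 and 84.3 CPM (0.63 ± 0.09, adjusted p = 1.0e-09). The members of both libraries lay above the rest of both libraries for *Aspn*. *Prelp* (0.40), *Fmod* (0.53) and *Ogn* (0.20) also passed, although *Fmod* was at 37.5 against 22.6 CPM in replicate 1 and was not higher in replicate 2, where it was at 11.2 CPM in members. *Bgn*, biglycan, was at 1618 and 1468 CPM in members and 1623 and 1463 CPM in the rest. Without the endothelial and macrophage cells described below, *Dcn* (0.66) and *Aspn* (0.60) passed, and *Prelp* (0.32, adjusted p = 0.092), *Fmod* (0.44, adjusted p = 0.18) and *Ogn* (0.17, adjusted p = 0.077) did not, with a median of 0.15 over the list.

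Of 23 fibrillar collagen and collagen-processing genes, 4 were higher in members and 0 lower, with a median of 0.19 against −0.02 over all genes. *Col3a1* was at 1039 and 721 CPM against 698 and 413 CPM, a log2 fold change of 0.65 ± 0.06 (adjusted p = 1.2e-26). *Col1a1*, a chain of type I collagen, was higher by 0.24, *Col6a2* by 0.28, and *Plod2*, a lysyl hydroxylase that prepares collagen for cross-linking, by 0.27. Without endothelial and macrophage cells *Col6a2* (0.24, adjusted p = 0.17) did not pass, and 3 of 23 genes were higher. Against the rest with *Lum* and *Pdgfra*, described below, 1 of 23 genes was higher, *Col3a1*, and 1 lower, *Lox*. The median of the list there was 0.04 against −0.01 over all genes, and *Col6a2* was at 0.10 (adjusted p = 0.84). Of 15 basement membrane genes, the type IV collagens *Col4a1* and *Col4a2* were higher and *Hspg2* and *Col18a1* lower, with *Col4a1* at 622 and 375 CPM against 458 and 289 CPM (0.38). *Col18a1* did not pass without endothelial and macrophage cells, and *Hspg2* did not pass at matched UMI counts. Against the rest with *Lum* and *Pdgfra*, *Col4a1* (0.15, adjusted p = 0.41) and *Col4a2* did not pass. Of 13 elastic fiber genes 0 passed, and of 14 general fibroblast genes 3 were higher (*Dcn*, *Col1a1*, *Col3a1*) and 1 lower, *Fbln2* (−0.28), which was at 0.044 at matched UMI counts, where 4 of 14 were higher and 0 lower.

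Of 19 adventitial fibroblast markers 2 were higher and 3 lower, and at matched UMI counts, described below, the 2 higher genes stayed and 0 were lower. *Col14a1*, a collagen that decorates fibrils, was at 464 and 269 CPM against 285 and 194 CPM (0.57 ± 0.07, adjusted p = 2.0e-13), and the secreted Wnt modulator *Sfrp4* was higher by 0.74. *Igfbp6* (−0.40), *Efemp1* (−0.44) and *Ly6a* (−0.22) were lower, and the other 14 genes tested did not pass. At matched UMI counts *Igfbp6* was at 0.18 (adjusted p = 0.82), *Efemp1* at −0.43 (adjusted p = 0.082) and *Ly6a* at 0.011 (adjusted p = 0.995). *Ly6a* was at 474 against 414 CPM in replicate 1 and at 221 against 376 CPM in replicate 2, so that the libraries differed in direction. With endothelial and macrophage cells left out, the log2 fold change of *Ly6a* was again −0.22, but it no longer passed (adjusted p = 0.053). Endothelial cells had *Ly6a* at 722 and 793 CPM, and their part in its lower level was not tested further.

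Of 7 pericyte markers tested, 3 were higher in members and 0 lower. *Kcnj8* and *Abcc9*, which code for the pore and the sulfonylurea receptor of a potassium channel, were at 34.3 and 22.4 CPM against 17.8 and 8.96 CPM (1.01 ± 0.17, adjusted p = 5.0e-07) and at 79.3 and 59.9 CPM against 46.8 and 38.8 CPM (0.68 ± 0.11, adjusted p = 2.2e-07). For both genes the lower member library lay above the higher library of the rest. *Rgs5*, an inhibitor of G protein signals, was at 96.6 and 241 CPM against 86.2 and 108 CPM (0.62), a difference that lay mostly in replicate 2. The pericyte gene *Higd1b* was at 0 in members. At matched UMI counts, described below, *Rgs5* alone of the 7 stayed higher and *Mcam* was lower.

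The cGMP pathway, in which soluble guanylyl cyclase answers nitric oxide, the receptors coded by *Npr1* and *Npr2* answer natriuretic peptides and phosphodiesterases break cGMP down, had 4 of 11 genes higher and 0 lower. *Gucy1b1*, the β1 subunit of soluble guanylyl cyclase, was at 29.1 and 21.0 CPM in members against 16.6 and 13.4 CPM in the rest (0.73 ± 0.17, adjusted p = 0.0015). *Gucy1a1*, its α1 subunit, was at 46.4 and 27.7 CPM against 24.0 and 22.9 CPM (0.72 ± 0.14, adjusted p = 2.5e-05). Members of both libraries lay above the rest of both for these subunits. The phosphodiesterases *Pde1a* (0.52) and *Pde5a* (0.31) were higher too. *Pde5a* did not pass without endothelial and macrophage cells, and neither phosphodiesterase passed against the rest with *Lum* and *Pdgfra*. *Npr2*, the receptor of C-type natriuretic peptide, was at 42.1 and 47.9 CPM in members and 37.3 and 52.5 CPM in the rest, *Npr3* at 207 and 184 CPM against 227 and 176 CPM, and *Npr1* at 0.86 and 0 CPM against 1.51 and 1.36 CPM. When the rule was applied to thinned cells, in the fit without the block, *Gucy1b1* (−0.11), *Gucy1a1* (−0.16) and *Rgs5* (−0.07) were no longer higher than in the rest. At matched UMI counts, where fewer cells entered the sums, 0 of 10 genes of the pathway passed, with *Gucy1b1* at 0.75 and *Gucy1a1* at 0.63 and a median of 0.18 over the list against 0.07 with all the rest.

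Other groups held a few genes each. *Serping1*, which codes for the C1 inhibitor, was at 232 and 132 CPM in members against 162 and 108 CPM in the rest, higher by 0.41. *Mmp3*, a matrix metalloproteinase, was at 51.3 and 153 CPM against 24.4 and 105 CPM (0.75 ± 0.10, adjusted p = 2.5e-10) and was the 1 of 9 metalloproteinase and inhibitor genes to pass. The inhibitor gene *Timp3* was also higher at matched UMI counts. Against the rest with *Lum* and *Pdgfra*, 0 of 9 were higher and 3 lower, *Timp1*, *Timp2* and *Timp3*. *Cxcl12*, a chemokine that attracts leukocytes and progenitors, was at 2637 and 2402 CPM against 2147 and 1951 CPM (0.27), above the rest in both, but at 0.02 (adjusted p = 0.99) at matched UMI counts. Of 24 mesenchymal transcription factors, *Meox2* and *Runx1* (0.58) were higher and *Klf4* (−0.38), a factor tied to modulation, was lower. Of the PDGF genes other than the receptor of the rule, *Pdgfrl* was higher and 5 of 6 tested did not pass. *Pdgfrl* did not pass without endothelial and macrophage cells, at matched UMI counts or against the rest with *Lum* and *Pdgfra*. Of 14 genes of lipid-laden cells 0 were higher, and *Cd36* and *Lgals3* were lower. The limit on *Gpnmb* took 38.3% and 78.5% of the non-cycling low-*Myh11* cells out of the members. Lower levels in this list, also of *Lgals3* below, may thus in part be set by the choice of cells, which was not tested. *Cd36* was at 0 CPM in members and 1.75 and 2.84 CPM in the rest, and without endothelial and macrophage cells it was too low to be tested, *Lgals3* stayed lower and *Apoe* was higher. *Mgp*, an inhibitor of calcification, was higher by 0.29, one of 3 genes higher and 1 lower of 12 in the chondro-osteogenic list. *Alpl* and *Tnfrsf11b*, osteoprotegerin, were the others higher, and *Col2a1* was the one lower. Of the 3 higher genes, *Tnfrsf11b* alone stayed higher at matched UMI counts, where *Spp1* was lower. Against the rest with *Lum* and *Pdgfra*, *Alpl* and *Mgp* were higher and *Tnfrsf11b* did not pass. At matched UMI counts *Serping1* (0.22, adjusted p = 0.52), *Runx1* (0.29, adjusted p = 0.71), *Klf4* (−0.26, adjusted p = 0.34) and *Mgp* (0.06, adjusted p = 0.85) did not pass either. Of the 19 contractile genes tested, *Mylk*, myosin light chain kinase, was higher by 0.50, and *Des* and *Cnn1*, calponin (−0.70), were lower. *Cnn1* was at 46.1 against 77.6 CPM in replicate 1 and at 9.73 against 8.29 CPM in replicate 2, so that the libraries differed in direction.

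The genes with the largest change that were higher in members, at 20 CPM or more, were *Kcnj8*, *Ephx2*, *Fxyd6*, *Gprin3*, *Clec11a*, *Abca8a*, *Mmp3*, *Sfrp4*, *Gucy1b1* and *Gucy1a1*. *Ephx2*, the soluble epoxide hydrolase, was at 45.5 and 53.9 CPM against 21.2 and 31.7 CPM (0.94 ± 0.13, adjusted p = 2.1e-10), and *Abca8a*, a lipid transporter, at 55.9 and 68.1 CPM against 36.5 and 32.5 CPM (0.75). *Fxyd6*, a regulator of the sodium pump, was higher by 0.88, *Gprin3* by 0.88, and *Clec11a*, a growth factor for bone-forming cells, by 0.85. In each of these the members of both libraries lay above the rest of both.

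The genes with the largest change that were lower included markers of other cell types. *Procr* (−2.19) and *Egfl7* (−1.75) are endothelial genes and *Lyz2* (−1.75) is a macrophage gene, and the rest held 79 and 122 cells with endothelial markers and 6 and 7 with macrophage markers, against 2 and 0 with endothelial and 0 with macrophage markers among members. Without those cells in either group, *Procr* (−0.53, adjusted p = 0.65), *Egfl7* (−0.42, 0.81) and *Lyz2* (0.46, 0.71) did not pass, and 282 genes (2.14%) did, 137 higher (1.04%) and 145 lower (1.1%), of which 251 were among the 322 with the same direction.

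The other 7 genes stayed lower without those cells. *Gdf15*, a cytokine released on cell stress, was at 5.48 and 8.23 CPM against 9.86 and 34.1 CPM (−1.44 ± 0.24, adjusted p = 7.0e-07). *Cdkn2b* and *Cdkn1a*, inhibitors of cyclin-dependent kinases, were lower by 0.89 and 0.65 on the log2 scale, and *Ccnd1*, cyclin D1, which drives entry into the cycle, by 0.88. *Cdkn1a* was at 167 and 140 CPM against 215 and 282 CPM, and *Ccnd1* at 36.0 and 56.9 CPM against 62.9 and 106 CPM, with the members of both libraries below the rest of both. At matched UMI counts *Ccnd1* stayed lower (−0.87), while *Cdkn1a* (−0.23, adjusted p = 0.50) and *Cdkn2b* (−0.71, adjusted p = 0.11) did not pass. *Hmga2* (−0.92), a chromatin protein of growing mesenchyme, *Gsta4* (−1.17), which clears products of lipid peroxidation, *Lgals3* (−0.98), galectin-3, *Elobl* (−0.98) and *Dkk2*, a Wnt antagonist at 15.6 and 4.49 CPM against 29.6 and 10.5 CPM, completed the 10 genes of the rule, to which *Cdkn1a* and *Ccnd1* do not belong.

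**Figure D4:**
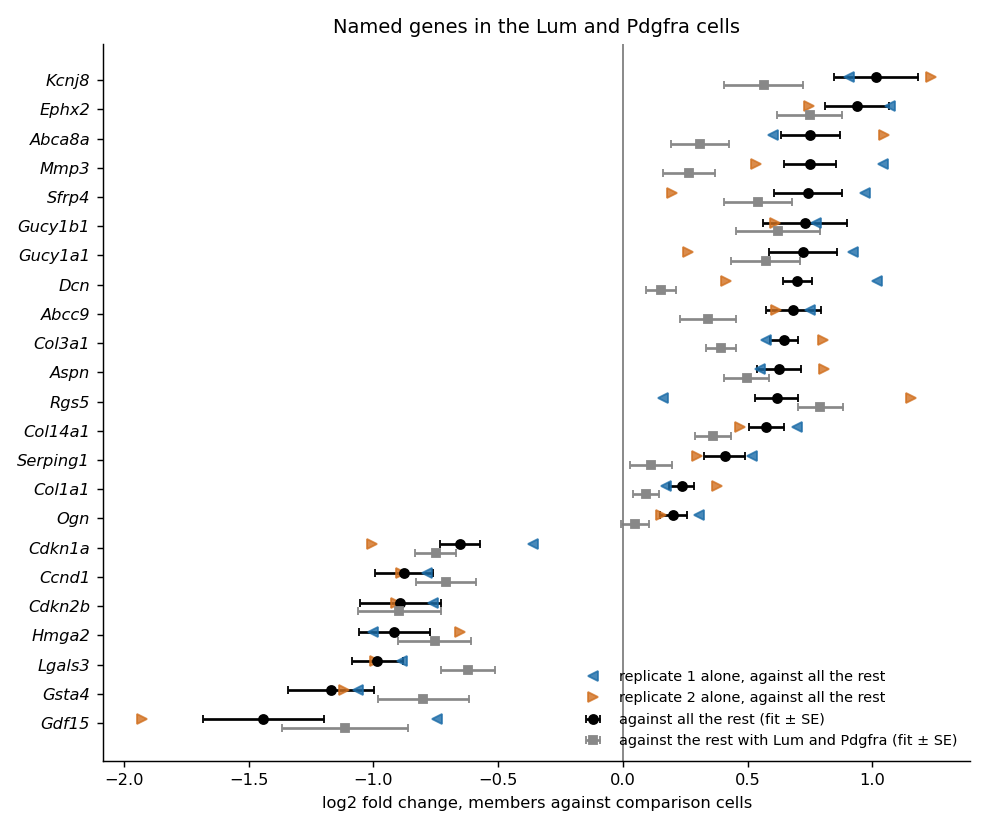
Log2 fold change (horizontal axis) of 23 named genes in members against all the rest (black circles, edgeR fit with the library block ± SE) and against the rest with *Lum* and *Pdgfra* (grey squares, same fit ± SE), with the difference of log2(CPM + 1) within each library as triangles. *Dcn* falls from 0.70 to 0.15 between the comparisons, whereas *Aspn* (0.63 and 0.50) and *Ccnd1* (−0.88 and −0.71) move less.

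The rest mixes cells with and without *Lum* and *Pdgfra*, so the members were also set against those of the rest that had a UMI of both genes and failed an upper limit, 805 and 1619 cells. This comparison was added after the data had been seen. Without the block 0 of 12133 genes passed in edgeR. An unadjusted p under 0.05 was found for 140, again fewer than that threshold would give with no differences. With the block 161 passed (1.33%), 58 higher (0.478%) and 103 lower (0.849%), and 123 of them were among the 322 with the same direction. The proteoglycan differences were mostly gone: *Dcn* was at 0.15 ± 0.06 (adjusted p = 0.27), *Prelp* at 0.01 and *Ogn* at 0.05, and *Aspn* alone of the family passed (0.50 ± 0.09, adjusted p = 2.5e-05). *Col3a1* (0.39 ± 0.06, adjusted p = 3.7e-08) and *Col14a1* (0.36, adjusted p = 0.00023) remained higher, while *Col1a1* (0.09, adjusted p = 0.65), *Mmp3* (0.27, adjusted p = 0.27), *Abca8a* (0.31, adjusted p = 0.24) and *Serping1* (0.11, adjusted p = 0.81) did not pass. *Rgs5* (0.79), *Ephx2* (0.75), *Gucy1b1* (0.62) and *Gucy1a1* (0.57) were higher, and *Cdkn1a* (−0.75), *Ccnd1* (−0.71), *Cdkn2b* (−0.90), *Gdf15* (−1.11) and *Klf4* (−0.47) lower, as in the comparison with all the rest. *Fbln2*, *Igfbp6*, *Efemp1* and *Ly6a* also passed as lower. The 10 higher genes with the largest change in this comparison were *Cenpa*, *Rgs5*, *Ephx2*, *Cdca3*, *Ppp1r14a*, *Gmnn*, *Gprin3*, *Htra1*, *Ccnb2* and *Clec11a*. *Cenpa*, *Cdca3*, *Gmnn* and *Ccnb2* among them are genes of the cell cycle, with *Cenpa* at 32.6 and 28.4 CPM in members, and the limit on cycling cells used other genes. The 10 lower ones were *Gdf15*, *Elobl*, *Nfatc3*, *Cdkn2b*, *Fabp3*, *Dkk2*, *Adcyap1r1*, *Esm1*, *Gsta4* and *Nipal1*. The double-positive cells were deeper than the members, with medians of 22642 and 16223 UMIs, and the part of depth in these differences was not tested.

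With each member matched to 1 cell of the rest of the same library with the nearest UMI count (medians of 18007.5 and 18008.5 UMIs in replicate 1, 12107 and 12104 in replicate 2), 157 of 9868 genes passed with the block (1.59%), 73 higher (0.74%) and 84 lower (0.851%), 114 of them among the 322. *Dcn* (0.60), *Col3a1* (0.56), *Aspn* (0.65), *Col14a1* (0.68), *Ogn* (0.33) and *Mmp3* (0.74) were higher at matched depth, and *Ccnd1* (−0.87) and *Gsta4* (−1.08) lower. Besides the genes given above, *Gucy1b1* (0.75, adjusted p = 0.12) did not pass there. Neither did *Kcnj8* (0.68, adjusted p = 0.18), *Abcc9* (0.52, adjusted p = 0.065), *Gucy1a1* (0.63, adjusted p = 0.14), *Mylk* (0.19, adjusted p = 0.77), *Lgals3* (−0.51, adjusted p = 0.063) or *Dkk2* (−0.67, adjusted p = 0.40). Of the 48 named genes called against the rest with the block, 23 also passed at matched UMI counts, where fewer cells entered the sums. Of 20 mesenchymal transcription factors 0 passed there, and of 11 chemokine and cytokine genes 0.

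The nearest cells by the rule were the 451 and 458 that met every upper limit but lacked *Lum* or *Pdgfra*. They are part of the rest, so that this comparison shares the members and some of the other cells with the first. They were shallower, with medians of 12405 and 7556.5 UMIs, and 65 (14.4%) and 99 (21.6%) of them carried endothelial markers. Of 10812 genes, 73 passed without the block (0.675%), 1 higher (0.00925%), *Dcn* (1.62, adjusted p = 0.028), and 72 lower (0.666%). The 10 lower genes with the largest change were *Nts*, *Car8*, *Fgd5*, *Gja4*, *Stab1*, *Emcn*, *Vwf*, *Adgrl4*, *Hhex* and *Icam2*, among them the endothelial markers *Vwf*, von Willebrand factor (0.86 and 0 CPM in members against 49.5 and 35.6 CPM), and *Emcn*, endomucin (1.44 and 0.75 CPM against 54.5 and 125 CPM). With the block 1088 genes passed (10.1%), 494 higher (4.57%) and 594 lower (5.49%), and at matched UMI counts 890 did (8.88%), 406 higher (4.05%) and 484 lower (4.83%). Without the cells with endothelial or macrophage markers, 0 of 10425 genes passed in edgeR without the block. There, 311 had an unadjusted p under 0.05, fewer than that threshold would give with no differences. With the block and without those cells 678 passed (6.5%), 322 higher (3.09%) and 356 lower (3.41%).

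Matrix genes were among those higher in this last comparison. Of 23 fibrillar collagen and processing genes 13 were higher and 0 lower, with a median of 0.31 against 0.01 over all genes, and of 8 leucine-rich proteoglycans 4 were higher, with a median of 0.45. *Dcn* was higher by 1.35 ± 0.08 (adjusted p = 1.3e-65), *Prelp* by 0.84, *Aspn* by 0.73, *Col12a1* by 0.64, *Col3a1* by 0.52, *Ogn* by 0.42 and *Col1a1* by 0.34. Basement membrane genes were higher in 6 of 15, general fibroblast genes in 7 of 14 with *Vim* lower, and adventitial markers in 6 of 19 with 0 lower, among them *Col14a1* (0.66) and *Dpt*, dermatopontin (0.82). At matched UMI counts, with endothelial cells kept, 7 of 18 adventitial markers were higher and 2 lower, *Cd34* and *Ly6a*, and *Ly6a* passed in opposite directions, at 0.31 (adjusted p = 0.014) without the other cell types and at −0.52 (adjusted p = 8.6e-06) at matched UMI counts. *Serping1* and *C1s1*, a protease of the classical complement pathway, were each higher by 0.89. Of 18 contractile genes 6 were lower (*Acta2*, *Tagln*, *Cnn1*, *Tpm2*, *Myl9* and *Des*) and *Mylk* was higher, with a median of −0.21. The lower calls depended on the cells compared: with all cells kept 3 of 18 were lower (*Des*, *Cnn1* and *Tagln*), and at matched UMI counts 2 of 17 (*Des* and *Cnn1*), with a median of 0.15.

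The genes with the largest change that were higher against cells lacking *Lum* or *Pdgfra* were, with all cells kept, *Mmp3* (1.85), *Abca8a* (1.68), *Dcn* (1.62), *Tmeff2* (1.49), *Dtx4* (1.39), *Fgl2* (1.36), *Scn7a* (1.36), *Kcnj8* (1.35), *Stc1* (1.33) and *Ms4a4d* (1.31), all with the block. *Abca8a* was at 23.9 and 12.7 CPM in those cells, against 55.9 and 68.1 CPM in the members. Without endothelial and macrophage cells all 10 stayed past the threshold, at 1.52, 1.37, 1.35, 1.21, 1.10, 1.03, 1.03, 1.06, 1.09 and 1.00. *Abcc9* (0.96), *Pde1a* (0.65) and *Cxcl12* (0.41) were also higher, whereas *Gucy1b1* (0.05, adjusted p = 0.95) and *Rgs5* (−0.12, adjusted p = 0.69) were not. *Gsta4* (−1.85), *Elobl* (−1.97), *Gdf15* (−1.63) and *Lgals3* (−1.36) were lower, although *Gdf15* differed in replicate 2 only (−0.01 and −2.58 within the libraries). *Rrm2*, *Cdc20* and *Birc5*, genes of dividing cells, were among the 10 lower genes with the largest change here, with *Birc5* at 16.1 and 20.2 CPM in members against 39.7 and 40.9 CPM in all cells lacking *Lum* or *Pdgfra*.

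**Figure D5:**
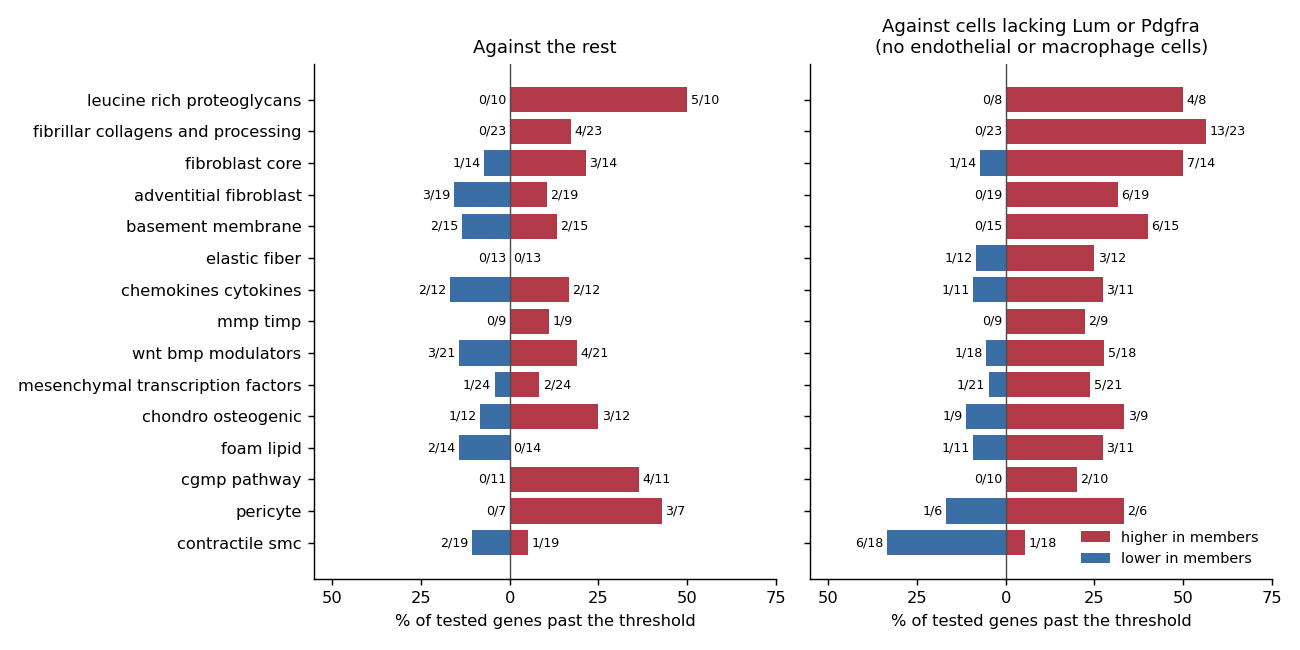
Percent of the tested genes of each list (horizontal axis) that passed the threshold as higher (red, to the right) or lower (blue, to the left) in members, against the rest (left) and against cells lacking *Lum* or *Pdgfra* without endothelial and macrophage cells (right), both edgeR with the library block; the fractions give genes passed and tested. Fibrillar collagen genes are higher in 4 of 23 on the left and in 13 of 23 on the right, and the share of all genes that were higher is 1.15% and 3.09%.

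The members of the 2 libraries differed from each other as well. Besides the sex-linked *Xist*, *Ddx3y* and *Eif2s3y*, the largest differences at 50 CPM or more were in *Fabp3* (17.3 and 72.6 CPM in replicates 1 and 2), *Ass1* (38.9 and 154 CPM), *Uap1l1* (51.3 and 200 CPM) and *AC160336.1* (21.0 and 88.3 CPM), which were higher in replicate 2. *Actg2*, a smooth muscle actin (86.8 and 6.73 CPM), *Rgs2* (54.8 and 6.73 CPM) and *Ly6c1* (57.7 and 11.2 CPM) were higher in replicate 1. The rest differed between the libraries in the same direction for each of these genes, with *Ass1* at 51.8 and 182 CPM and *Actg2* at 91.5 and 25.6 CPM.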

How the data were processed

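Primary aortic VSMCs were profiled with the 10x Genomics 3' v3 method. The authors aligned reads to mm10 with Cell Ranger (3.0.2 in the submitters' notes; the matrix headers name 3.0.2 for replicate 1 and 3.1.0 for replicate 2) and deposited unnormalized UMI counts, whole numbers for every gene in every barcode, empty droplets included. The cell filters were those of the study: a minimum of 3000 UMIs and 300 genes, and less than 20% mitochondrial UMIs. Doublets were kept. Leaving out the 5% of cells with the most UMIs was an alternative. The rule, the gene lists and the tests were chosen with earlier results of these data known.

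Counts were summed per library and group. CPM is relative to the UMIs of a sum and is not corrected for length. Tests used edgeR 4.0.16 (quasi-likelihood F test, TMM, filterByExpr, Benjamini-Hochberg) with 10 rule genes left out. DESeq2 1.42.0, RLE factors, no filter, depth matching, other rules and other cell filters were alternatives. The libraries are separate: the median chi-square per gene between them was 17.3 over 14119 genes. Sums of a library come from one culture, so the replicate number pairs them, and their deviations from the group means had correlations across genes of 0.634 (members and rest) and 0.598 (members and cells lacking *Lum* or *Pdgfra*). SE was derived from each F statistic and its log2 fold change. Clusters were made per library by Leiden (leidenalg 0.10.2) without the rule genes and were not named. Genes named are the rule genes, up to 4 with the highest CPM in members and 2 called with the largest change in each list, marker genes at or near 0, the 10 per comparison and direction with the largest change (past the threshold, same sign in both libraries, at least 20 CPM in the higher group, from the fit with the block where fewer than 10 passed), and the 5 per direction that differed most between the members of the libraries at 50 CPM or more. *Cdkn1a*, *Ccnd1* and other list genes named outside these were chosen after their values were seen. Some genes of the lists are not reported here. Coordinates are of the GENCODE M21 annotation of GRCm38.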

Additional observations from a re-analysis of the deposited data

How the results depend on the processing

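The 2 libraries limit every test, and members with 1 UMI of *Lum* or *Pdgfra* cannot be separated from background at this depth. With the replicate number as a block, the counts against the rest were 154 higher and 168 lower, and against cells lacking *Lum* or *Pdgfra* 494 higher and 594 lower. The alternatives that leave out other cell types, match depth with the block, or take only the rest with both genes were chosen after seeing the data. With the block and no endothelial or macrophage cells they were 137 and 145, and 322 and 356, and with the block and matched UMI counts 73 and 84, and 406 and 484. Against the rest with *Lum* and *Pdgfra* the block gave 58 and 103. DESeq2 called 4 lower genes against the rest, and 6 higher and 133 lower against cells lacking a gene, and without the filter on low counts the calls were 4 and 43, and 153 and 459. Against cells lacking *Lum* or *Pdgfra*, where 1 was higher and 72 lower, 35 were lower with matched UMI counts and 38 at 1000 UMIs per cell. None passed in either direction (0) with at least 3 UMIs of each gene, with the rule on thinned cells, or without endothelial and macrophage cells. In these, edgeR gave 675 of 10471, 397 of 13311 and 311 of 10425 genes with an unadjusted p under 0.05. The count of 675 is above, and those of 397 and 311 are below, what that threshold would give with no differences. The cause of the changes in the numbers of genes called was not tested, except that the groups then hold other or fewer cells. The mean share of members was 0.697% with at least 3 UMIs of each gene and, with either replicate left out, ranged from 1.48% to 3.70%.

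Some named genes turned direction, and *Ly6a* and *Apoe* passed the threshold in opposite directions against cells lacking *Lum* or *Pdgfra*, both higher without endothelial and macrophage cells and lower at matched UMI counts, with the block. With at least 3 UMIs of each gene these were *Elobl* (0.14) and *Igfbp6* (0.14) against the rest and *Elobl* (0.30) against cells lacking a gene. With matched UMI counts, without and with the block, they were *Fbln2* (0.022 and 0.044), *Igfbp6* (0.17 and 0.18), *Ly6a* (0.022 and 0.011) and *Lyz2* (0.38 and 0.38). *Egfl7* was at 0.32, and 0.28 with the block, against the rest with *Lum* and *Pdgfra*. With the rule on thinned cells, which shared 27 and 34 cells with the members, *Efemp1* (0.029), *Fbln2* (0.021), *Gucy1a1* (−0.16), *Gucy1b1* (−0.11), *Igfbp6* (0.11), *Ly6a* (0.42), *Mgp* (−0.046) and *Rgs5* (−0.072) turned against the rest, and *Gucy1b1* (−0.29), *Ly6a* (0.48) and *Rgs5* (−0.085) against cells lacking a gene. Without endothelial and macrophage cells, without and with the block, *Lyz2* was at 0.53 and 0.46 against the rest and *Rgs5* at −0.073 and −0.12 and *Ly6a* at 0.31 and 0.31 against cells lacking a gene, where *Ly6a* was at −0.24 with all cells kept and no block. The cause was not tested.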

Other observations

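Modulators of Wnt and BMP signals moved in both directions in the members. Against the rest, with the replicate block in edgeR, 4 of 21 were higher (*Frzb*, *Sfrp1* and *Sfrp4*, secreted Wnt antagonists, and *Id3*, a target of BMP signals) and 3 lower (*Grem1* and *Nbl1*, BMP antagonists, and *Dkk2*). At matched UMI counts 2 of 18 were higher (*Frzb* and *Sfrp4*) and 1 lower (*Grem1*), so that *Id3* did not pass there. *Sfrp1* did not pass without endothelial and macrophage cells, nor *Frzb* against the rest with *Lum* and *Pdgfra*. *Id3* was at 1313 and 1442 CPM in members against 1139 and 1156 CPM in the rest, above it in both libraries. *Grem1* was at 140 and 242 CPM against 167 and 281 CPM. Of the chemokine and cytokine genes, 2 of 12 were higher (*Cxcl5* and *Cxcl12*) and 2 lower (*Ccl2* and *Csf1*), and *Cxcl5* was at 14.7 and 2.99 CPM in members against 4.29 and 3.49 CPM in the rest, so that it was higher in replicate 1 only. There, 45 of its 51 UMIs in members lay in those with 1 *Lum* UMI (48.2 CPM). Members of replicate 1 with 2 to 4 *Lum* UMIs had *Cxcl5* at 5.34 CPM, and those with 5 or more at 0 CPM.

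Of the chondro-osteogenic list, *Col2a1*, the main collagen of cartilage, was at 1.15 and 3.74 CPM against 2.57 and 34.6 CPM in the rest. In replicate 2, cluster 10 had *Col2a1* at 245 CPM against 15.3 CPM in the other cells, and it held 2 members. The limit on the cartilage regulator *Sox9* took 17.1% and 27.8% of the non-cycling low-*Myh11* cells out of the members, and its part in the lower *Col2a1* was not tested. *Alpl*, a phosphatase of mineralizing cells, was at 4.61 and 8.23 CPM against 2.44 and 0.898 CPM, on 16 and 11 UMIs in members.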
